A study of Papio anubis and Macaca fascicularis and Castor canadensis with 48 samples.

Results

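Macaque cerebellum was compared with macaque liver in 12 of the 48 bulk RNA sequencing libraries of a study of gene expression and longevity across mammals. The libraries were taken by their labels, which name 6 cerebellum and 6 liver libraries of the long-tailed macaque, Macaca fascicularis. Every animal is labelled as a wild-type adult male, and the labels give no treatment and no further allele or agent. Libraries of both organs are numbered 1 to 6. Nothing in the labels says that these come from separate animals, so p-values measure the spread between libraries. The column headers put this number after the species name, and the macaque kidney libraries are numbered 1, 2, 3, 5 and 6. A number may therefore stand for 1 animal, which no label states. The main tests did not pair cerebellum and liver libraries by number. The 5 kidney libraries of the same species were fitted with them, and 6 brain and 6 liver libraries of the baboon, Papio anubis, also labelled as wild-type adult males, served as an independent set. The labels give no brain region for the baboon.

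The cerebellum coordinates movement and motor learning. Most of its cells are small granule neurons, whose axons excite the large Purkinje cells, the output neurons of the cerebellar cortex, and inhibitory interneurons, astrocytes, Bergmann glia and oligodendrocytes make up much of the rest. The liver is built mainly of hepatocytes, which secrete most plasma proteins, make bile acids and urea, store and release glucose and process foreign compounds. In whole tissue, fewer cells of a type and less RNA per cell cannot be told apart.

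Genes are known here by mouse Ensembl ID alone, because neither the deposited table nor the gene table at hand pairs these IDs with names. The defining markers of cerebellar and liver cell types could therefore not be looked up, and the tissue labels were not checked against them. Genes are described below in groups set by their expression, and 2 genes in each direction are given by ID.

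Liver RNA was dominated by a few genes and cerebellum RNA was spread over many. In liver, 44.8 ± 6.43 genes (SD, n = 6) together held the first 50% of all counts, with a range of 37 to 54. In cerebellum, 1001 ± 51.2 genes were needed (n = 6), with a range of 952 to 1071. All 6 cerebella lay above all 6 livers (two-sided exact permutation test, p = 0.00216, the smallest these arrangements allow, and adjusted p = 0.00216 over 5 measures). With libraries permuted only within their number, an exact permutation test chosen after seeing the data, p was 0.03125 for each of the 5 measures, the smallest that 6 pairs allow. Kidney lay between them with 616.6 ± 87.4 genes (n = 5).

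More genes were detected in cerebellum. At 1 CPM or more (a count scaled to the total of its library) there were 12345 to 12674 genes in the 6 cerebella and 10728 to 11221 in the 6 livers (exact permutation p = 0.00216). The livers had more counts in the table, with totals of 21915567 to 26801829 against 14820194 to 20511506 in cerebellum (exact permutation p = 0.00216). These are counts assigned to genes, and the number of reads sequenced was not available here. At an equal depth of 7408436 read pairs, 14250 ± 88.1 genes were expected in cerebellum and 13129 ± 102 in liver (n = 6 each), again without overlap (exact permutation p = 0.00216). Only the total was made equal here. The most counted genes took a larger share of it in liver, and their part in the number of genes detected was not tested.

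**Figure D1:**
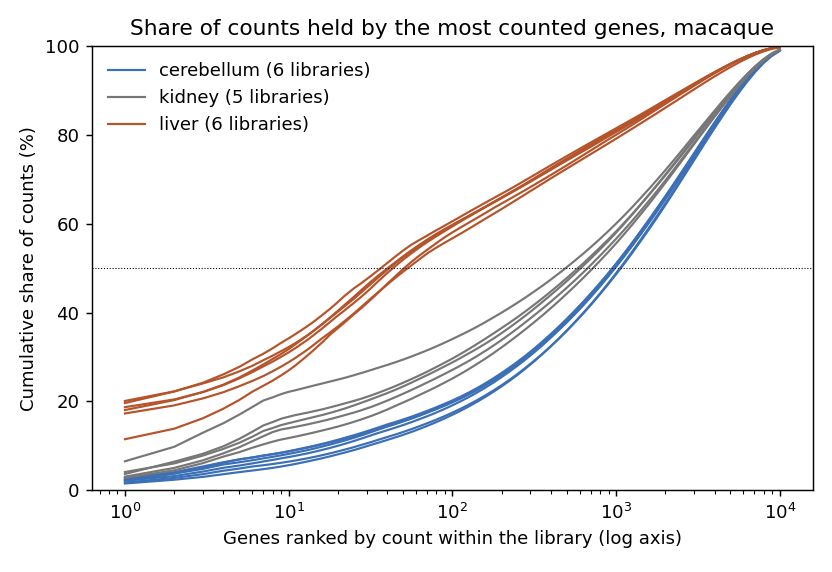
The cumulative share of counts (vertical axis, in percent) held by the most counted genes of each library (horizontal axis, gene rank on a log scale) for 6 cerebellum, 5 kidney and 6 liver libraries of the macaque, 1 line per library. The liver lines cross 50% at 37 to 54 genes and the cerebellum lines at 952 to 1071 genes.

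Because of this composition, the scaling between libraries decides the balance of the comparison. TMM factors, which set the middle of the genes level between libraries, were 0.517 to 0.594 in liver and 1.44 to 1.53 in cerebellum. Total count times TMM factor was 11900000 to 14600000 in liver and 22000000 to 29500000 in cerebellum, the reverse of the order by total count. Levels are given below as TMM-scaled CPM, so that ratios of levels match the fitted fold changes. Where CPM stands alone, counts are scaled to the library total without the TMM factor. With TMM, cerebellum against liver had a median log2 fold change of 0.06 over the tested genes. Without any scaling factor it was 1.51.

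Most genes differed between cerebellum and liver. Of 13927 genes tested, 5866 were higher and 5539 lower in cerebellum (edgeR quasi-likelihood test, Benjamini-Hochberg adjusted p under 0.05), which is 81.9% of the genes tested. A test against a 2-fold change was passed by 3637 genes higher and 3431 lower, 26.1% and 24.6% of those tested. Of all called genes, 51.4% were higher in cerebellum. Without a scaling factor the counts were 9885 higher and 2449 lower, so that 80.1% of the called genes were higher. These are 71.0% and 17.6% of all genes tested. Directions in the text are therefore relative to the middle of the genes in each library.

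The large changes went to both sides. Fold changes of 4 to 16 in size were estimated for 1260 genes higher and 1404 lower in cerebellum. Fold changes of 16 to 256 were estimated for 1020 genes higher and 728 lower. Beyond 256-fold there were 487 genes higher and 325 lower, and in 177 and 37 of these the organ with less had no count in any of its 6 libraries, so that the size of the estimate is not fixed by the data. For 9095 genes, 65.3% of those tested, the 6 cerebella and 6 livers did not overlap at all.

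**Figure D2:**
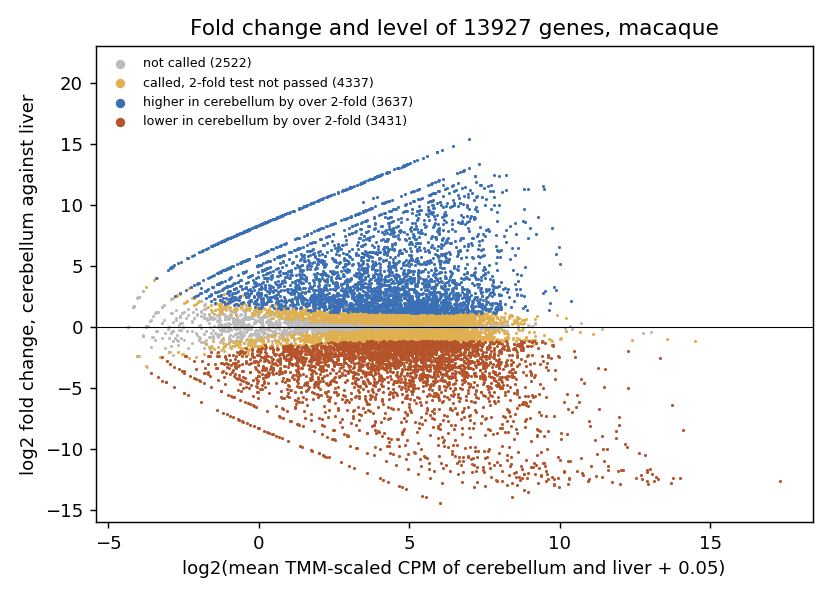
The log2 fold change of cerebellum against liver (vertical axis) against the mean level of each of 13927 genes (horizontal axis, log2 of TMM-scaled CPM plus 0.05), with 1 point per gene. Blue marks 3637 genes higher and brown 3431 genes lower by over 2-fold, yellow marks genes called without passing the 2-fold test, and grey marks 2522 genes that were not called. The straight lines of points at the upper and lower left edges are genes with no or few counts in 1 of the organs.

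Some genes were counted in 1 organ and not detected in the other at this depth. All 6 livers lacked a count for 240 genes whose mean in cerebellum was at least 1 CPM. In the other direction 39 genes averaged at least 1 CPM in liver and were without a count in every cerebellum. This limit was set on library totals without the TMM factor, which was lower in liver. The same 1 CPM is therefore a higher TMM-scaled level in liver, a stricter limit for the 39 genes. Its part in the 2 numbers was not tested. No test was made on these numbers of genes. The livers had the larger totals, but their mean total times TMM factor was lower than that of cerebellum, by a ratio of 1.95 between the organs, and its part in these numbers was not tested. A further 1281 of the 16816 rows had no count in any of the 12 libraries.

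ENSMUSG00000027500 had the largest fold change upward among genes without overlap of the organs, with at least 20 TMM-scaled CPM in the higher organ and at least 6 counts in the lower. It had 530 to 621 TMM-scaled CPM in the 6 cerebella, with a median of 601. In the 6 livers it had 0 to 0.307, with no count in 3 of them, and in the 5 kidneys 0 to 0.0879. The choice of the gene required that cerebellum and liver not overlap. The 6 cerebella lay close together. The log2 fold change was 12.42 ± 0.34 (SE, edgeR adjusted p = 1.99e-15). The livers gave 4 read pairs in all, and the ratio of 5788 had an exact 95% Poisson interval of 2260 to 21241. Without macaque liver 5, which held 4 of the 8 liver counts, the log2 fold change was 13.10.

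ENSMUSG00000035964 was the next. It had 397 to 528 TMM-scaled CPM in cerebellum, with a median of 446, and 0 to 0.307 in liver, with no count in 4 livers. Kidney had 0.0937 to 1.63. Cerebellum stood above liver in every library, which the choice of the gene required, and also above every kidney. The log2 fold change was 12.41 ± 0.57 (SE, edgeR adjusted p = 7.86e-13). The 3 read pairs of the livers put the ratio at 5878 (exact 95% Poisson interval 2011 to 28502). Without macaque liver 5 the log2 fold change was 13.59.

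In the other direction, ENSMUSG00000050445 had 439 to 881 TMM-scaled CPM in the 6 livers, with a median of 755, and 0 to 0.0793 in the 6 cerebella, 3 of which had no count. The lowest livers were replicates 2 and 6, with 439 and 518. Kidney had 2.25 ± 1.27 (SD, n = 5), above every cerebellum and far below every liver. The log2 fold change was -13.90 ± 0.50 (SE, edgeR adjusted p = 2.74e-14). From the 3 read pairs of the cerebella the liver was higher 17699-fold, with an exact 95% Poisson interval of 6056 to 85825.

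ENSMUSG00000025075 varied little in liver, from 927 to 1027 TMM-scaled CPM with a median of 977. In cerebellum it had 0 to 0.235 and in kidney 0 to 0.589. The log2 fold change was -13.50 ± 0.55 (SE, edgeR adjusted p = 1.50e-13). Its SD over the 6 livers was 44.2, against 171 for the gene before it. The 6 read pairs of the cerebella put the ratio, liver over cerebellum, at 12470 (exact 95% Poisson interval 5729 to 33980). Cerebellum 5 held 6 of the 12 cerebellum counts, and without that library the log2 fold change was -14.17.

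**Figure D3:**
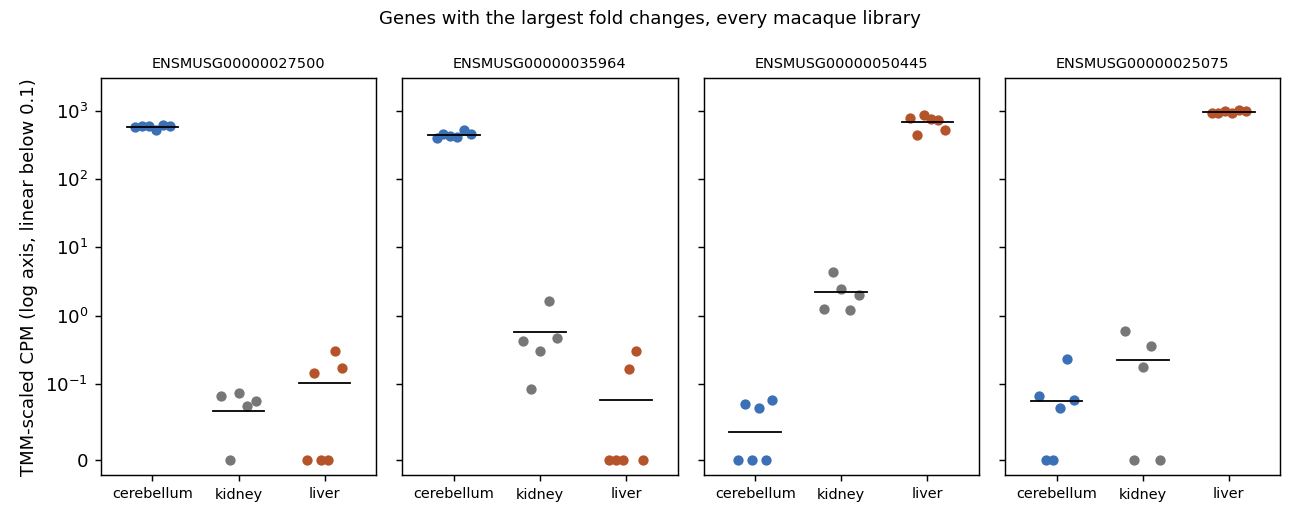
TMM-scaled CPM (vertical axis, logarithmic above 0.1 and linear below) of 4 genes in every macaque library, with 6 cerebella, 5 kidneys and 6 livers as points and the mean as a bar. The first 2 genes sit between 397 and 621 in cerebellum and the other 2 between 439 and 1027 in liver, and the opposite organ stays below 0.31 for all 4.

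The kidney level was set beside those of the genes over 2-fold apart. Over the 3637 genes higher in cerebellum by over 2-fold, the median log2 level was 4.83 in cerebellum, 2.33 in kidney and 0.54 in liver. For 67.2% of these genes kidney was nearer to liver. Over the 3431 genes lower in cerebellum, the median log2 level was 2.17 in cerebellum, 4.43 in kidney and 5.44 in liver, and kidney was nearer to liver for 65.3%. Over all genes tested kidney was nearer to liver for 61.2%, so the shares in both groups were near that of all genes. Kidney had less than liver for 698 of the genes higher in cerebellum and more than cerebellum for 429. It had more than liver for 814 of the genes lower in cerebellum and less than cerebellum for 366. Over all 13927 genes tested, kidney lay beyond liver for 4046 and beyond cerebellum for 2795. It lay between them for 69% of the higher genes, 65.6% of the lower and 50.9% of all. Genes over 2-fold apart leave a wider gap to lie in, and the part of this was not tested. These are descriptions of group means without a test.

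Liver libraries varied more among themselves than cerebellum libraries. Over 4184 genes with at least 20 TMM-scaled CPM in all 3 organs, the median coefficient of variation (SD over mean) was 8.11% among the 6 cerebella, 10.2% among the 5 kidneys and 16.9% among the 6 livers. It was larger in liver than in cerebellum for 3667 of these genes, 87.6%. A coefficient over 50% was found for 123 genes in liver and 13 in cerebellum. This was not tested, since each organ gives 1 set of 6 libraries.

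Genes abundant in baboon organs, chosen without any macaque library, were then followed in the macaque. The 100 genes most counted in baboon liver held 57.8% ± 1.54 of all counts in macaque liver (SD, n = 6). Their share was 7.95% ± 1.25 in cerebellum (n = 6) and 17.6% ± 3.58 in kidney (n = 5). The lowest liver had 55.8% and the highest cerebellum 9.19%. Of these 100 genes, 97 were tested, 94 were lower in cerebellum and 0 were higher, where 39.8% of all genes tested were lower (edgeR). Without a scaling factor 89 were lower and 5 higher, where 17.6% of all genes were lower and 71.0% higher. Their median log2 fold change was -10.03, with a range of -12.94 to -0.19, beside 0.06 over all genes.

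The 100 genes most counted in baboon brain held 17.2% ± 1.44 of the counts in macaque cerebellum (SD, n = 6). Their share was 7.31% ± 1.02 in liver (n = 6) and 17.5% ± 3.61 in kidney (n = 5). Cerebellum and kidney overlapped here, and both stood above every liver. In cerebellum against liver, 75 of the 100 were higher and 15 lower, where 42.1% of all genes were higher, and the median log2 fold change was 2.64. Without a scaling factor 90 were higher and 4 lower, where 71.0% of all genes were higher and 17.6% lower. There were 13 genes on both lists, of which 12 were tested. With TMM 9 were lower in cerebellum and 0 higher, where 39.8% of all genes tested were lower and 42.1% higher. This split depended on the scaling. Without a scaling factor the 5 higher genes of the liver list and the 4 lower genes of the brain list were all shared ones. With the 13 shared genes removed and TMM, 75 of 87 brain genes were higher and 6 lower, and 85 of 87 liver genes were lower and 0 higher. The median log2 fold change was -10.89 for these liver genes and 3.11 for these brain genes. These groups were set in baboon, and the difference between the medians was not tested.

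Presence and absence were compared in the same way. Of 31 genes with at least 1 CPM in baboon liver and no count in any baboon brain, 12 had no count in any of the 6 macaque cerebella and 0 had no count in every liver. Of 250 genes with at least 1 CPM in baboon brain and none in baboon liver, 132 were also at 0 in all 6 macaque livers and 15 were at 0 in all 6 cerebella. The share of all rows at 0 in each organ alone was not counted, so these numbers have no base rate beside them. Of all 16816 rows, 1281 had no count in any of the 12 libraries. Only 25 of the 31 and 163 of the 250 passed the filter on low counts, so their fold changes are not used as support.

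With TMM, genes that were level between the organs in baboon were called less often in macaque than all genes tested, and few passed the 2-fold test. For 1752 genes the 95% interval of baboon brain against liver lay within a 1.5-fold change. In macaque 726 of these, 41.4%, had an interval within 1.5-fold for cerebellum against liver, beside 11.6% of all genes tested. The baboon rule also selects genes with a narrow interval, while all genes tested include those with wide ones. The part of this in the contrast was not tested. Of the 1752 genes, 573 were higher and 554 lower in cerebellum, 64.3% together beside 81.9% of all genes tested. Of them 49 and 41 passed the 2-fold test, 5.14% together beside 50.8% of all genes tested. Their log2 fold changes ranged from -5.00 to 3.54. Without a scaling factor 1687 were higher and 9 lower, where 71.0% and 17.6% of all genes were, so level means level relative to the other genes.

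The fold changes of macaque cerebellum and of baboon brain, each against liver, come from separate libraries. Of 3475 genes over 2-fold higher in macaque cerebellum and tested in both species, 2762 were also over 2-fold higher in baboon brain, 79.5% of the macaque genes and 76.0% of the 3632 baboon genes. Of 3360 lower genes, 2583 were also lower in baboon, 76.9% of the macaque genes and 80.5% of the 3208 baboon genes. In baboon 27.4% and 23.6% of all genes tested passed this test in each direction. Opposite directions were found for 103 genes, 40 higher and 63 lower in macaque. Across 13560 genes the fold changes correlated with r = 0.895 and rho = 0.854, as a description over genes, which are not independent replicates.

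**Figure D4:**
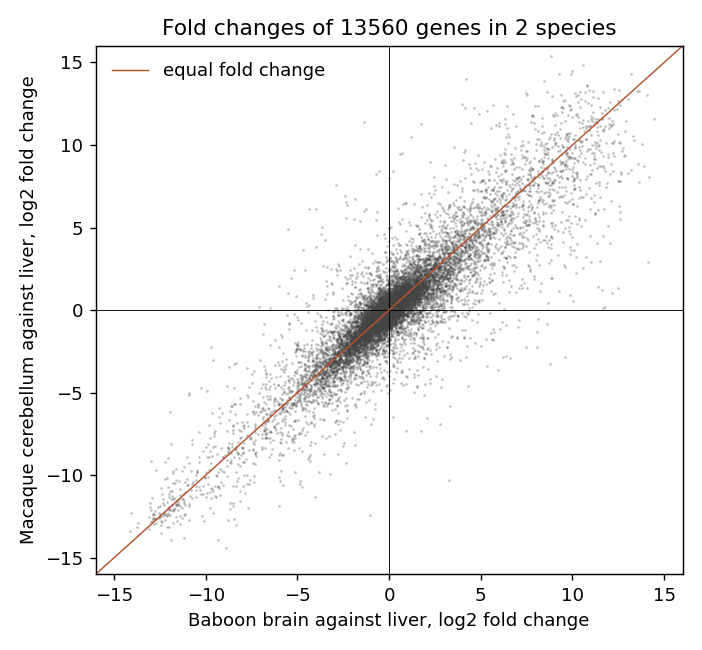
The log2 fold change of macaque cerebellum against liver (vertical axis) against that of baboon brain against liver (horizontal axis) for 13560 genes, 1 point per gene, with a line where both are equal. Most points follow the line (r = 0.895), and 103 genes passed the 2-fold test in opposite directions.

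A test of the difference itself showed where the macaque comparison departed from the baboon one. Of 14035 genes tested in 24 libraries, 5764 had a fold change that differed between the species, 41.1%, 3049 with a larger and 2715 with a smaller value in macaque (edgeR interaction term, adjusted p under 0.05). A difference over 2-fold was called for 1596 genes, 11.4%. Of 5318 genes tested for it that were over 2-fold in the same direction in both species, 1710 were called, 32.2%. Species, brain region and the assignment of reads to mouse genes cannot be told apart in this difference.

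ENSMUSG00000005553 was high in macaque cerebellum and low in the other 3 groups. It had 487 to 805 TMM-scaled CPM in the 6 macaque cerebella, with a median of 559, and 0.53 to 16.4 in the 6 baboon brains, with a median of 11.3. The livers were low and uneven, with 0 to 8.74 in macaque and 0 to 55.5 in baboon. The log2 interaction estimate was 9.05 ± 1.57 (SE, edgeR adjusted p = 6.99e-05). Macaque liver 2 held the highest of the macaque liver values, and without it the estimate was 11.25.

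ENSMUSG00000006711 differed through the livers. It had 39.0 to 68.7 TMM-scaled CPM in macaque cerebellum and 20.5 to 39.0 in baboon brain. The 6 baboon livers had 19.6 ± 3.19 (SD, n = 6), while the 6 macaque livers had 0 to 0.246, 4 of them with no count. The log2 interaction estimate was 8.95 ± 0.46 (SE, edgeR adjusted p = 7.71e-13). Without macaque liver 2, which held 4 of the 6 liver counts, it was 10.09.

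ENSMUSG00000000247 went the other way. The 6 baboon brains had 39.3 ± 9.38 TMM-scaled CPM (SD, n = 6), and 5 of the 6 macaque cerebella had no count, with 0.246 in cerebellum 3. The livers overlapped, with 2.38 to 6.58 in macaque and 3.94 to 7.73 in baboon. The gene was thus lower in cerebellum than in liver in macaque (log2 fold change -6.91) and higher in brain than in liver in baboon (2.76). The log2 interaction estimate was -9.58 ± 0.62 (SE, edgeR adjusted p = 5.19e-11).

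ENSMUSG00000053863 had the most negative estimate, -12.50 ± 2.02 (SE, edgeR adjusted p = 3.06e-05), and part of its size depended on a pair of libraries. Macaque livers 3 and 4 had 135.6 and 132 TMM-scaled CPM, and the other 4 livers had 0.231 to 3.86. Macaque cerebellum had 0 to 0.246, baboon brain 0.359 to 11.7 and baboon liver 0 to 0.707. Without livers 3 and 4 the estimate was -7.55 (edgeR adjusted p = 6.96e-05), and with the replicate number as a block it was -11.38.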

How the data were processed

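The authors deposited 1 table of raw counts per gene, with 1 column per library and 16816 rows named by mouse Ensembl IDs, per the file headers. Per the submitters' processing notes, alignment software STAR and the counting program featureCounts were used. Not given in the sources used here are their versions, the builds, the strand and the way macaque reads reached mouse IDs. Low counts (up to 20) were even in 97.26% to 99.45% of cases in the 12 libraries, so 2 counts were taken as 1 read pair. All columns matched a sample (0 unmatched).

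The 17 macaque libraries were fitted with edgeR 4.0.16 in R 4.3.3 (TMM, filterByExpr, quasi-likelihood F test, and glmTreat for a 2-fold change). The interaction used 24 libraries. P-values were adjusted by Benjamini-Hochberg at 0.05. A check on simulated data was run first. It changed few genes, equally in both directions, so it does not cover the scaling of organs in which most genes differ. SE come from the F statistic. Alternatives included DESeq2 1.42.0. The comparison and its lists were chosen with earlier results of these data known. The 41 gene lists, marker lists and promoter motifs are written for gene symbols, 0 of which could be matched to IDs, so none was tested and the parts of the rule for named genes that need symbols were dropped. Genes are named by the largest fold changes with at least 20 TMM-scaled CPM in the higher group and 6 counts in the lower (every group in the interaction), 2 per direction, and without overlap of the groups in cerebellum against liver. The fold changes, p-values and lack of overlap of the named genes are thus in part set by this choice. Exact intervals reflect counting error alone and leave out the spread between libraries. They may be too narrow even for counting error, because PCR reads without molecular identifiers are not separate molecules. The groups set by baboon libraries were chosen after the lists could not be matched.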

Additional observations from a re-analysis of the deposited data

Results flagged for a closer look

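The interaction was called for 5764 genes, which means that cerebellum against liver in macaque and brain against liver in baboon differed by a test of the difference itself. The 4 genes named for it were picked out by the same test, with log2 estimates of 9.05 for ENSMUSG00000005553, 8.95 for ENSMUSG00000006711, -12.50 for ENSMUSG00000053863 and -9.58 for ENSMUSG00000000247.

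In 3 of 40 sets of 6 values checked, 1 library stood apart from the other 5. Chance alone gives about 1 in 20 for normally distributed values. In cerebellum ENSMUSG00000025075 and ENSMUSG00000000247 had at most 6 counts per library, where that rate need not hold. ENSMUSG00000025075 had 0.235 TMM-scaled CPM in cerebellum 5, the highest of the cerebella. ENSMUSG00000005553 had 8.74 in macaque liver 2. ENSMUSG00000000247 had 0.246 in cerebellum 3, against no count in the other 5 cerebella.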

How the results depend on the processing

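Scaling was the choice that moved the comparison. With total counts only and no scaling factor, 9885 genes were higher and 2449 lower in cerebellum, and 7762 and 1660 by over 2-fold, and the median log2 fold change was 1.51 in place of 0.06. The other alternatives moved these 4 counts by less than 1.5 times. With upper-quartile factors 6101 were higher and 5292 lower, and with DESeq2 6078 and 5443. Leaving out each of the 12 libraries in turn gave 5714 to 5886 higher and 5405 to 5495 lower, and 3516 to 3654 and 3351 to 3437 by over 2-fold. With a replicate block 5988 were higher and 5539 lower, and 5383 genes were called in the interaction, all within 1.5 times. Same-numbered cerebellum and liver libraries deviated together with r = 0.069 to 0.12 over 8838 genes, above 0.1 in 3 of 6 pairs. Of the 6 cerebella, 5 correlated best with the liver of their own number. The numbers in the headers would allow pairs by animal, which no label states. The 8 named genes kept their direction and call in 100 of 100 alternative values (largest adjusted p = 0.00135). Depth limits the fold changes of the 4 genes named in cerebellum against liver, which had 3 to 6 read pairs in the lower organ, and their exact intervals cover counting error alone.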

Other observations

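The livers resembled each other by neighbouring number. Deviations from the liver mean, over 8838 genes, correlated at 0.339 between livers 1 and 2, 0.386 between livers 3 and 4 and 0.174 between livers 5 and 6. The other 12 pairs of livers ranged from -0.487 to -0.0755. The same neighbours in kidney gave 0.0994 and 0.114, against -0.46 to -0.121 for the other 8 pairs. Between cerebellum and liver the 6 neighbouring but different numbers gave 0.00871 to 0.0987, and the other 24 combinations gave -0.084 to 0.0241. Among cerebella the neighbours gave -0.241 to 0.0101, and the other 12 pairs -0.417 to -0.0544, so the ranges overlapped. Kidney shared deviations with the same number in both other organs, at 0.218 to 0.363 with liver and 0.147 to 0.201 with cerebellum over 5 pairs each. Subtracting the mean of an organ by itself pushes the correlations between its own libraries below 0. Negative values within an organ are therefore not read as opposition, and each is set only beside other pairs of that organ. All these correlations were noticed in the data, the labels name nothing that the neighbouring numbers share, and no test was made.

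Cerebellum 6 held a small set of genes far above the other cerebella. For 9 of 10075 genes with at least 5 TMM-scaled CPM in cerebellum, it stood apart and had over 4 times the next library, with a median of 13.7 times. Of these 9 genes, 3 were called higher and 3 lower in cerebellum than in liver, beside 42.1% and 39.8% of all genes tested. Among the 5 genes with the largest coefficient of variation over the cerebella, 4 were highest in cerebellum 6, and their mean levels in liver were 9628, 0.753, 0.369 and 26.7 TMM-scaled CPM. Cerebellum 3 had 8 genes over 4 times the next library and the other 4 cerebella 0. Liver 2 had 9 such genes, of 9679 at the same level in liver, and each other liver had 1 to 5. In all there were 24 in the livers and 17 in the cerebella. Over all genes 6.61% had a cerebellum that stood apart and 6.42% a liver, beside the about 1 in 20 that chance gives for normally distributed values.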
